A study of Homo sapiens with 8 samples.

Results

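The core autophagy machinery was taken as 35 genes, from the kinase complex that starts an autophagosome to the receptors that load it and the transcription factors that supply its parts. Of these, 33 had at least 1 m6A peak in both peak lists of the series, out of 8691 genes with a peak in both. GABARAPL2 had a peak in the shFTO list only, and ULK2 had none in either list. The cells were Mel624, an established human melanoma line, infected with lentivirus carrying a short hairpin RNA against FTO (shFTO) or a negative control hairpin (shNC), selected with puromycin and grown without further treatment in DMEM with 10% FBS. FTO is an enzyme that removes the methyl group from N6-methyladenosine (m6A) in mRNA. There were 2 replicates in each group, and IP and input were sequenced for both, which makes 8 libraries. Both groups carry a hairpin and a virus, and each stands for 1 cell line in full serum, so neither shows starved cells. The sources used here do not say whether replicates were separate cultures, and p-values therefore cover the spread between these libraries, which may be technical.

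Autophagy wraps cytoplasm in a double membrane and delivers it to the lysosome. The ULK1 kinase complex receives the signal from nutrient sensors, a lipid kinase complex built on BECN1 marks the site with phosphatidylinositol 3-phosphate, ATG9A vesicles and ATG2 proteins bring lipids, and a pair of protein conjugation reactions attach LC3 and GABARAP proteins to the growing membrane, where cargo receptors bind them. Melanoma cells use the pathway under nutrient stress, and the study knocked down ATG5 and ATG7 to block it. The mark itself is written on adenosines within short consensus motifs, of which GGACU is the classical one.

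The value given for each peak is the deposited log2 enrichment score of a replicate, in which the IP signal of a peak over that of the median window along the mRNA is divided by the matching input value. A score therefore compares 1 place on an mRNA with its other places. It is no level of the mRNA, and a change that takes in the whole transcript does not appear in it. In these bulk libraries, fewer cells with a methylated mRNA and less methylation in each cell cannot be told apart. Without read counts in the lists, the sequencing depth under each peak is unknown.

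GGACU sites lay inside listed peaks of 20 of the 34 members with a peak, at 38 sites in all. The 10 members with at least 2 such sites were matched to GENCODE version 44 transcripts (GRCh38), with a shift of up to 1500 bases allowed. A match had to meet the spacing of the sites, their region and the absence of further GGACU within the peaks. AMBRA1 and SQSTM1 had no match. For the other 8 members all matches lay at 1 place in the genome, which gave 20 placed sites. They are shown, as the sites of peaks described below, with 12 bases on each side, 5′ to 3′ on the mRNA strand, with T for U and GGACU in capitals. The nucleotide is the position on the isoform as the lists give it. The site at nucleotide 685 of ATG4C is not shown, since its surroundings differ between transcripts. A listed GGACU is a match of letters and not a measured methylated base.
ULK1 nucleotide 3490, 3′UTR, chr12:131921427-131921431, plus strand: tgtgtgctggctGGACTcctcgggacaag
ULK1 nucleotide 3939, 3′UTR, chr12:131921876-131921880, plus strand: ggacctcaccagGGACTgctgggcagcga
UVRAG nucleotide 1625, CDS, chr11:76115999-76116003, plus strand: ttcatggagcatGGACTaatggtcaggtg
UVRAG nucleotide 1909, CDS, chr11:76140978-76140982, plus strand: ggatacctccttGGACTtctccaaagaaa
UVRAG nucleotide 2364, 3′UTR, chr11:76141433-76141437, plus strand: aggtcaacagtaGGACTggggcagaagct
ATG14 nucleotide 120, CDS, chr14:55411738-55411742, minus strand: ccgggacctggtGGACTccgtggacgatg
ATG14 nucleotide 4556, 3′UTR, chr14:55366577-55366581, minus strand: gtagagtggacgGGACTcatgtaaggact
ATG14 nucleotide 4568, 3′UTR, chr14:55366565-55366569, minus strand: ggactcatgtaaGGACTcaatttggggaa
ATG14 nucleotide 4610, 3′UTR, chr14:55366523-55366527, minus strand: catgctgttagaGGACTagtgtccgagaa
ATG4B nucleotide 1446, 3′UTR, chr2:241672402-241672406, plus strand: cgctgtgctcgtGGACTgaggctgcgctg
ATG4B nucleotide 1777, 3′UTR, chr2:241672733-241672737, plus strand: ccccacgcccaaGGACTgggctgctctcg
ATG4C nucleotide 606, CDS, chr1:62816781-62816785, plus strand: ctcttggctcaaGGACTcatactacactt
ATG7 nucleotide 2299, 3′UTR, chr3:11554910-11554914, plus strand: atcgccagagcaGGACTgctgaccccagg
ATG7 nucleotide 2470, 3′UTR, chr3:11555081-11555085, plus strand: gctattgacctgGGACTtggtcctccatg
TFEB nucleotide 1487, CDS, chr6:41684844-41684848, minus strand: attccatcacctGGACTtcagccacagcc
TFEB nucleotide 1878, 3′UTR, chr6:41684453-41684457, minus strand: tggcccctgtttGGACTtagtgcctgtct
TFEB nucleotide 2159, 3′UTR, chr6:41684172-41684176, minus strand: cctgcctttttgGGACTcagatggcagga
TFE3 nucleotide 1897, CDS, chrX:49030279-49030283, minus strand: ggggtggtgggaGGACTgtcggggggtgc
TFE3 nucleotide 2044, 3′UTR, chrX:49030132-49030136, minus strand: acccctcccctgGGACTttcccacccagg

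The score columns did not separate the groups. Over the 12117 peaks that could be compared 1 to 1 between the lists, Pearson's r was 0.908 between the shFTO replicates and 0.901 between the shNC replicates, and 0.879 to 0.925 across the groups. Over the 45 such peaks of autophagy mRNAs it was 0.905 and 0.871 within shFTO and shNC, and 0.846 to 0.932 across. Peaks share their libraries and are not replicates. All 7 melanocyte markers checked had a peak in both lists, and none of the 4 keratinocyte markers had one. Of the 5 fibroblast markers, 1 had a peak in both lists, and the collagen genes had none. FTO itself, the target of the hairpin, had 2 peaks in shFTO, with replicate scores of 2.15 and 2.42 at the start codon and 2.50 and 3.11 in the CDS, against 3.19 and 2.51 and then 3.57 and 3.22 in shNC, which also had a peak at the stop codon. Its mRNA level was not analysed here.

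Of the 35 core autophagy mRNAs, 34 had a listed m6A peak in shFTO and 33 in shNC, mostly at overlapping places. The lists hold only genes with a peak. The share of all expressed genes with a peak is therefore unknown, and these counts cannot be read as a trait of the machinery. There were 67 peaks on 34 members in shFTO and 72 peaks on 33 members in shNC, or 1.97 and 2.18 per member, against 1.96 and 2.05 per gene in the whole lists. The most were 7 in shFTO, on RB1CC1, and 6 in shNC, on RB1CC1 and ATG13. Of the 33 members in both lists, 3 had more peaks in shFTO, 7 had fewer and 23 had the same number, and the highest peak lay in the same labelled region in 30. The same counts of peak numbers and regions were not made over all genes. All 33 had at least 1 pair of peaks that overlapped by at least 1 base, as had 8635 of the 8691 genes with a peak in both lists. Peaks with no overlapping peak in the other list numbered 7 of 67 in shFTO and 7 of 72 in shNC, against 14.2% and 14.6% of all peaks. A gene with a peak in shFTO only, as GABARAPL2 was, made up 7.76% of all genes listed, and one with a peak in shNC only 5.98%. Since each group has a single list, no replicate error can be put on such counts and none was tested.

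**Figure D1:**
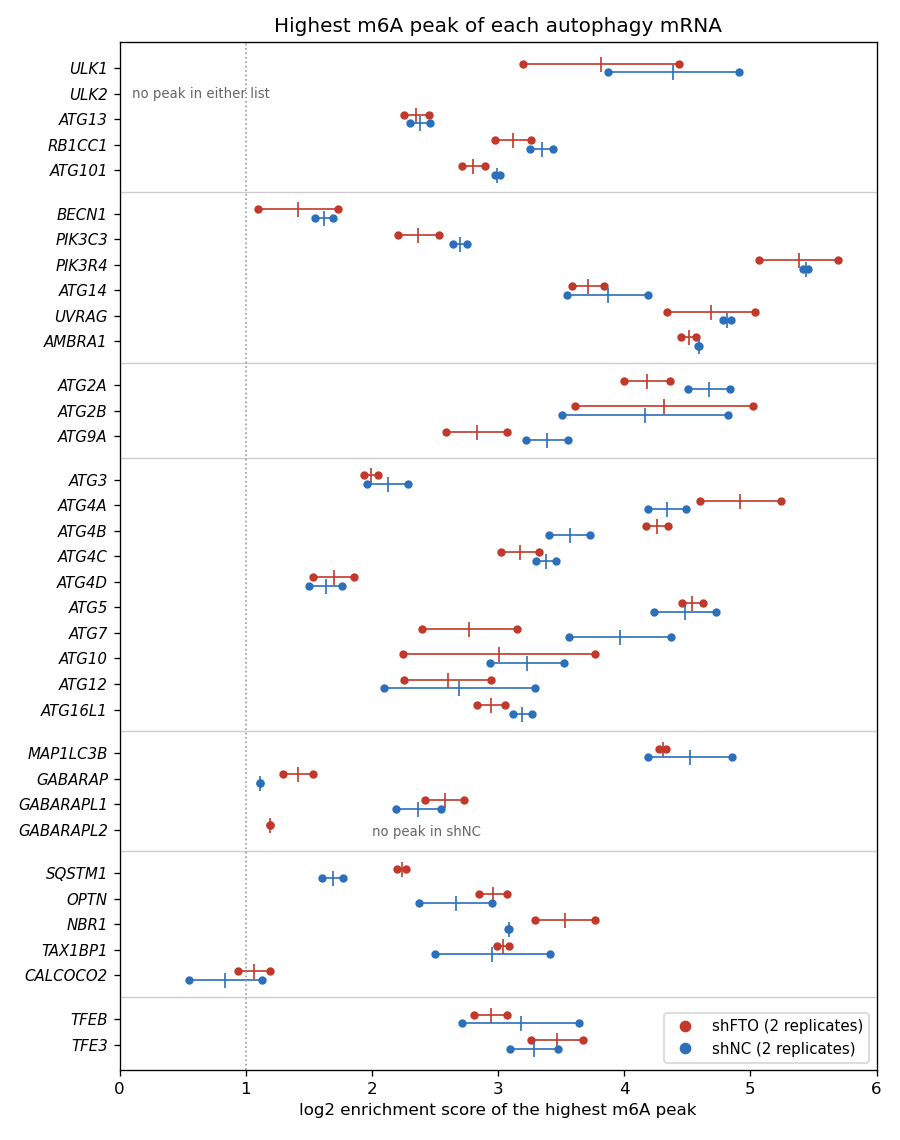
Log2 enrichment score (x axis) of the highest m6A peak of each of the 35 members (rows, grouped by role), with shFTO in red above shNC in blue. Points are the 2 replicates, ticks their mean, and the dotted line is the score of 1 used for windows. PIK3R4 is highest at 5.38 in shFTO and 5.44 in shNC, CALCOCO2 lowest at 1.07 and 0.84 among members in both lists.

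Heights spread widely within the machinery. The highest peak of a member had a median score of 2.98 in shFTO (n = 34) and 3.23 in shNC (n = 33), against 2.99 and 3.01 over all genes, and 17 of 34 and 20 of 33 members lay above the median gene. PIK3R4, the VPS15 subunit that anchors the lipid kinase, (chr3:130678934-130746829) headed the list with a CDS peak of 5.69 and 5.07 in the shFTO replicates and 5.45 and 5.42 in the shNC replicates, at the percentile 95.1 of the top peaks of all genes in shFTO and 95.6 in shNC. At the other end, the only peak of CALCOCO2, the receptor NDP52, scored 1.19 and 0.94 in shFTO and 1.13 and 0.55 in shNC, and those of GABARAP scored 1.30 and 1.53 in shFTO and 1.11 and 1.11 in shNC.

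FTO knockdown left no autophagy peak with a difference that passed the test. Peaks with exactly 1 overlapping partner were set against it in limma, with 2 replicates in each group and p-values adjusted over the 12117 pairs of all genes. The 45 pairs of the machinery, in 30 members, had a median log2 ratio of shFTO over shNC of -0.04 (SD over pairs 0.36), against -0.01 (0.40) over all pairs, and 26 of 45 were lower in shFTO, against 51.6% of all. None passed an adjusted p of 0.05, as none did among all pairs (0%), and the lowest adjusted p of the 45 was 0.723. At an unadjusted p under 0.05 in limma there were 2 higher pairs, both in ATG4B, against 2.3% of all pairs, and 1 lower pair, in ATG2A, against 3.68%. Both shFTO replicates lay above both shNC replicates in 6 of 45 pairs, against 15.7% of all pairs, and below them in 9, against 17.7%. These shares are near those of all peaks. The median standard error of a ratio was 0.31, so the data do not show that a single peak stayed the same, and a count of 0 with 2 replicates a group is no sign of stability. The median ratio moved with each library left out. It was -0.08 without shFTO replicate 1, 0.14 without shFTO replicate 2, -0.11 without shNC replicate 1 and 0.06 without shNC replicate 2. The shFTO replicate 2 scored below shFTO replicate 1 in 43 of 67 autophagy peaks, against 55.9% of all shFTO peaks, while shNC replicate 2 scored below shNC replicate 1 in 36 of 72, against 59.9% of all shNC peaks. Without shFTO replicate 2, limma gave none of the 45 an unadjusted p under 0.05.

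**Figure D2:**
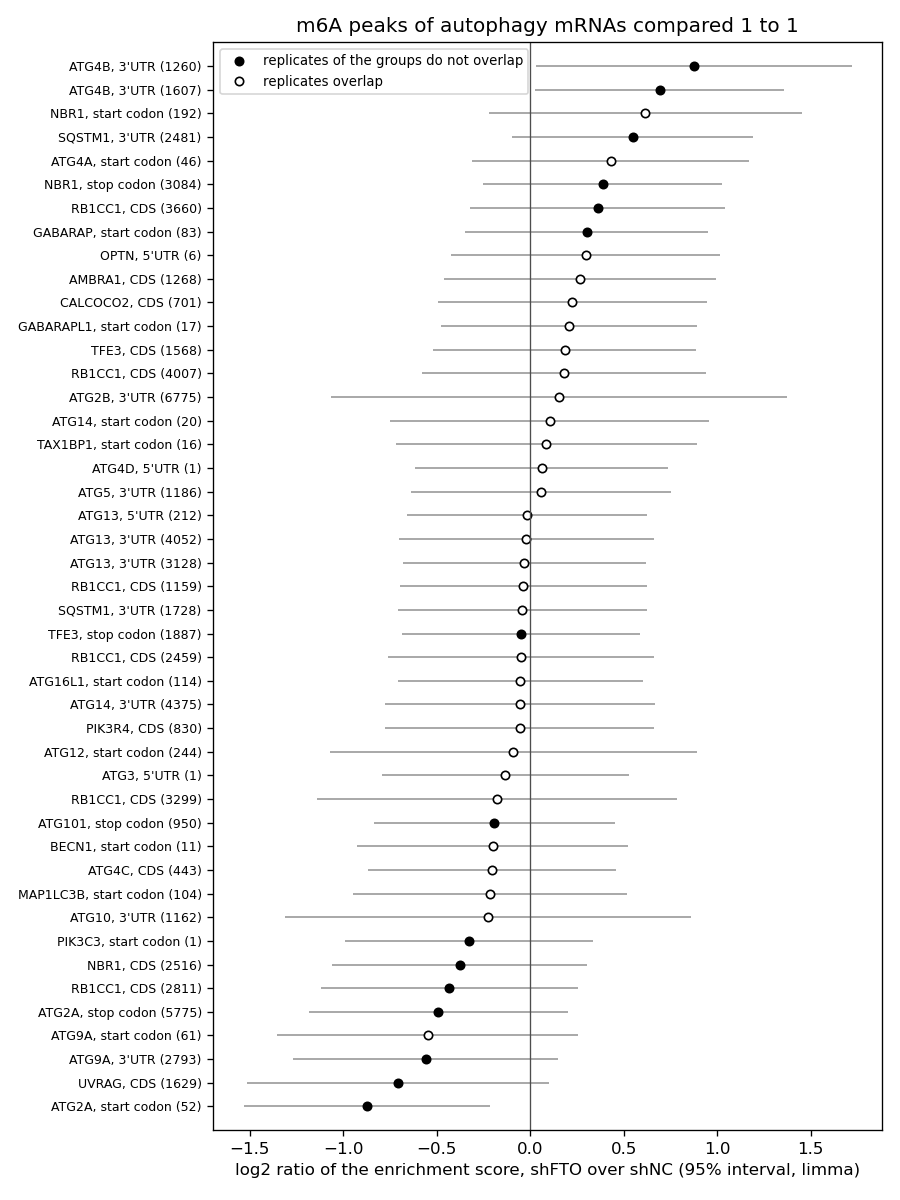
Log2 ratio of the enrichment score, shFTO over shNC (x axis), for the 45 autophagy peaks compared 1 to 1, with 95% intervals from limma (bars), each row naming the gene, the region and the first nucleotide of the shFTO peak. Filled points mark the 15 pairs whose replicates do not overlap between groups. The intervals of both ATG4B peaks and of the ATG2A start codon peak leave out 0, and none of the 45 passes after adjustment.

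Among the ULK complex, ULK1, the kinase that starts autophagy (chr12:131894622-131923150), had 2 strong adjoining peaks from the stop codon into the 3′UTR, and both held 1 of the GGACU sites shown. The stop codon peak scored 3.43 and 3.39 in shFTO and 3.70 and 3.11 in shNC. The 3′UTR peak scored 3.20 and 4.43 in shFTO and 4.91 and 3.87 in shNC. The groups overlapped at both, and neither was in the 1 to 1 test, since the stop codon peak ended at nucleotide 3783 in shFTO and 3791 in shNC, which made the shFTO 3′UTR peak overlap both shNC peaks. ATG13, which ties the kinase to its scaffold, had only peaks of modest height, the highest in the 3′UTR at 2.45 and 2.25 in shFTO and 2.30 and 2.46 in shNC, and its 3 pairs had ratios between -0.03 and -0.02. RB1CC1, the FIP200 scaffold, carried a run of 6 CDS peaks in both lists, with mean scores between 1.85 and 3.12 in shFTO and between 1.89 and 3.34 in shNC, and the ratios of its 6 pairs went both ways, from -0.43 to 0.36. Its highest peak in shFTO, from nucleotide 3660, scored 3.26 and 2.97 in shFTO and 2.58 and 2.93 in shNC, while its highest peak in shNC, from nucleotide 2811, scored 3.14 and 2.69 in shFTO and 3.43 and 3.25 in shNC. The groups lay apart at both, in opposite directions. The stop codon peak of ATG101, which stabilises ATG13, scored 2.89 and 2.71 in shFTO and 2.97 and 3.01 in shNC, so the groups did not overlap, by a small margin. Of 10 pairs in the complex, 8 were lower in shFTO, against 51.6% of all pairs, with a median of -0.03. RB1CC1 held 6 of the 10 and ATG13 3.

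The lipid kinase complex held the highest peak of the machinery in both lists, in PIK3R4, and stop codon peaks in 3 of its other mRNAs. UVRAG, the subunit of its endosomal form (chr11:75815210-76144232), had a stop codon peak of 5.04 and 4.33 in shFTO and 4.85 and 4.79 in shNC, over the GGACU at nucleotide 2364. AMBRA1, a scaffold that binds BECN1 (chr11:46396412-46594023), had a stop codon peak of 4.45 and 4.57 in shFTO and 4.60 and 4.59 in shNC. ATG14, which brings the complex to the endoplasmic reticulum, had one of 3.59 and 3.84 in shFTO and 4.19 and 3.55 in shNC. ATG14 also had GGACU sites in both of its other shared peaks. Its start codon peak, over nucleotide 120, scored 3.03 and 2.66 in shFTO and 2.25 and 3.24 in shNC, and its 3′UTR peak, over nucleotides 4556 and 4568 and in shFTO also 4610, scored 2.07 and 1.47 in shFTO and 1.71 and 1.94 in shNC, both with overlap. At the stop codon peaks the groups overlapped at UVRAG and ATG14 and lay apart by a small margin at AMBRA1, and none of these 3 was in the 1 to 1 test. BECN1 and PIK3C3, the regulatory core and the catalytic subunit, each had a single start codon peak. For BECN1 it scored 1.73 and 1.10 in shFTO and 1.55 and 1.69 in shNC. For PIK3C3 it scored 2.53 and 2.21 in shFTO and 2.64 and 2.75 in shNC, with no overlap of the groups. The lowest ratio here was at the upstream CDS peak of UVRAG, with 3.33 and 2.72 in shFTO and 4.08 and 3.39 in shNC. Both shFTO replicates lay below both shNC replicates, and the log2 ratio was -0.71 (standard error 0.36, 95% interval -1.52 to 0.10, adjusted p = 0.863 from limma). The shNC peak started at nucleotide 1582, the shFTO peak at 1629, and the shNC peak took in the GGACU at nucleotide 1625, which the shFTO peak did not. The short CDS peak that followed scored 2.96 and 2.77 in shFTO and 3.47 and 3.23 in shNC, also without overlap, and was not in the 1 to 1 test.

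The 3 lipid supply genes had the lowest median ratio of the 7 role groups, -0.55 over 5 pairs, none of which passed the test. Of these pairs, 4 were lower in shFTO, against 51.6% of all pairs. The 4 came from ATG2A and ATG9A alone, and pairs of 1 mRNA are not independent. ATG2A moves lipid into the growing membrane (chr11:64894546-64917209), and both of its peaks scored lower in shFTO. Its start codon peak scored 2.44 and 2.26 in shFTO and 3.09 and 3.35 in shNC, without overlap, a log2 ratio of -0.87 (standard error 0.29, 95% interval -1.53 to -0.22, adjusted p = 0.723 from limma), the lowest of the 45. Its stop codon peak scored 3.99 and 4.37 in shFTO and 4.84 and 4.50 in shNC, a ratio of -0.49 (adjusted p = 0.912 from limma), again without overlap. ATG9A, the scramblase carried by the seed vesicles (chr2:219219380-219229636), also had 2 lower pairs. Its 3′UTR peak scored 2.59 and 3.07 in shFTO and 3.55 and 3.22 in shNC, a ratio of -0.56 (adjusted p = 0.887 from limma). Its start codon peak scored 1.39 and 0.99 in shFTO and 2.15 and 1.33 in shNC, a ratio of -0.55 (adjusted p = 0.928 from limma), where the groups overlapped. ATG2B, the paralogue of ATG2A, did not follow. Its 3′UTR peak scored 5.02 and 3.61 in shFTO and 3.51 and 4.82 in shNC, so that replicates of each group stood further apart than the groups. ATG2B also had a stop codon peak in shFTO of 3.34 and 3.76 with no partner in shNC, the highest unpartnered peak of the machinery, and a short 3′UTR peak far downstream in shNC of 1.96 and 1.77 with none in shFTO. Across all genes with at least 2 pairs, 28.7% had only lower ratios in shFTO and 24.8% only higher ones. Among the 9 members with at least 2 pairs, 3 had only lower ratios (ATG13, ATG2A and ATG9A), 1 only higher ones (ATG4B) and 5 had both.

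The conjugation system includes the ATG4 proteases, which trim LC3 and GABARAP proteins and later release them from membranes. ATG4B, the main protease of the family (chr2:241637693-241673857), had 2 separate 3′UTR peaks, each over 1 of the GGACU sites shown, and both scored higher in shFTO. The first scored 3.30 and 4.11 in shFTO and 3.15 and 2.52 in shNC, a log2 ratio of 0.87 (standard error 0.37, 95% interval 0.03 to 1.72, adjusted p = 0.823 from limma), the highest of the 45. The second scored 4.17 and 4.34 in shFTO and 3.73 and 3.40 in shNC, a ratio of 0.69 (standard error 0.29, 95% interval 0.03 to 1.36, adjusted p = 0.823 from limma). The groups did not overlap at either peak. ATG4A, the X-linked paralogue (chrX:108088829-108154671), leaned the same way in the mean only. Its start codon peak, its only one in the 1 to 1 test, scored 1.94 and 2.26 in shFTO and 1.36 and 1.98 in shNC (ratio 0.43, adjusted p = 0.952 from limma). The groups overlapped there. Its stop codon peak scored 5.24 and 4.60 in shFTO and 4.19 and 4.49 in shNC, but these peaks covered nucleotides 1281 to 1715 and 1315 to 1778, and the lists divided the region between 2 peaks each at other borders. ATG4C had a CDS peak of 3.32 and 3.02 in shFTO and 3.46 and 3.30 in shNC, and ATG4D a weak 5′UTR peak of 1.53 and 1.86 in shFTO and 1.50 and 1.77 in shNC, both with overlapping groups.

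ATG5 and ATG7, the genes that the study silenced to block autophagy, carried peaks around the stop codon. ATG5 is joined to ATG12 and forms with ATG16L1 the enzyme that places LC3 on the membrane (chr6:106184476-106325760). Its single peak scored 4.62 and 4.46 in shFTO and 4.23 and 4.72 in shNC, a log2 ratio of 0.06 (standard error 0.31, 95% interval -0.64 to 0.75, adjusted p = 0.999 from limma). It is labelled 3′UTR in shFTO and stop codon in shNC and starts at nucleotide 1186 in shFTO and 1170 in shNC. ATG7, which activates both conjugation reactions (chr3:11272397-11576353), had 1 wide peak in shFTO from nucleotide 2194 to 2810, with scores of 3.15 and 2.40. In shNC the same stretch held 2 peaks, 2.49 and 2.23 at the stop codon and 4.37 and 3.56 in the 3′UTR. The wide peak takes in both GGACU sites shown, while the shNC peaks took in only that at nucleotide 2299. One score over the whole stretch and a score for each end are not the same measurement, so no ratio was taken. ATG10 and ATG3, the carriers of ATG12 and LC3, had a single peak each, at 3.77 and 2.25 in shFTO and 3.53 and 2.94 in shNC for ATG10, and at 2.05 and 1.93 in shFTO and 1.96 and 2.28 in shNC for ATG3. The start codon peak of ATG12 scored 2.95 and 2.26 in shFTO and 2.09 and 3.29 in shNC. ATG16L1 was led by a stop codon peak of 2.84 and 3.05 in shFTO and 3.27 and 3.12 in shNC. Of these 4, only ATG16L1 had groups that did not overlap.

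**Figure D3:**
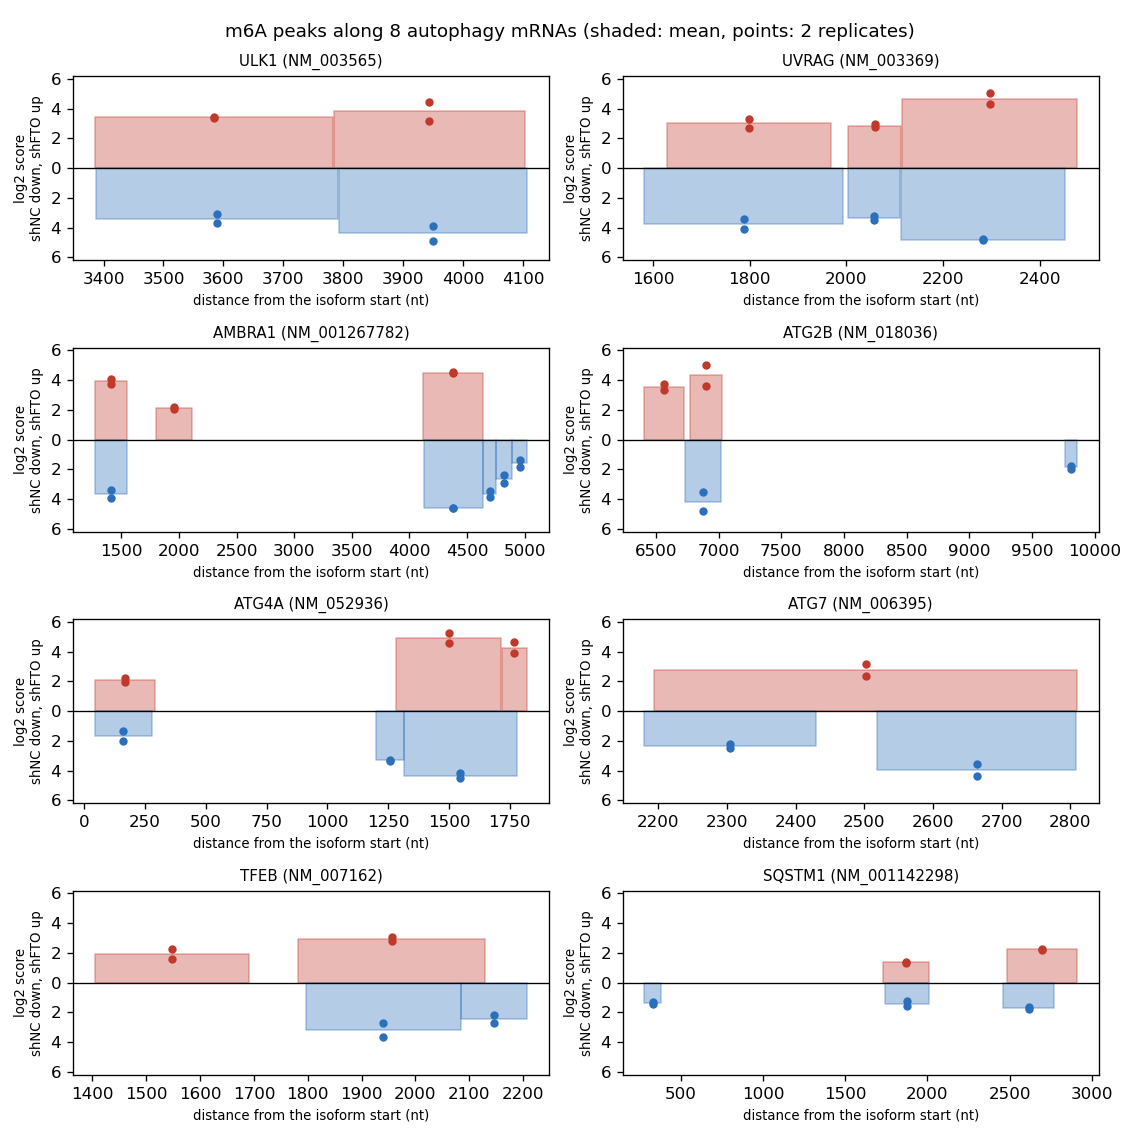
m6A peaks along 8 autophagy mRNAs, plotted by distance from the isoform start in nucleotides (x axis), with the mean log2 score of shFTO peaks drawn upward in red and that of shNC peaks downward in blue (y axis), and the 2 replicates as points. The borders of adjoining peaks differ between lists in ULK1, UVRAG, AMBRA1, ATG4A, ATG7 and TFEB, and ATG7 has 1 peak in shFTO where shNC has 2.

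The ATG8 proteins, the tags of the autophagosome membrane, had their highest peak at the start codon in each case. MAP1LC3B, which encodes LC3B, stood apart with 4.33 and 4.28 in shFTO and 4.86 and 4.18 in shNC. GABARAPL1 scored 2.73 and 2.42 in shFTO and 2.19 and 2.55 in shNC. GABARAPL2 scored 1.19 in both shFTO replicates. GABARAPL1 was the only mRNA of the 4 with a listed GGACU, in its shNC stop codon peak. GABARAP and GABARAPL2 thus had the lowest peaks of the 4, and in shNC a GABARAPL2 score under the threshold and too few reads to test cannot be told apart.

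Among cargo receptors, 2 of 8 pairs were lower in shFTO, against 51.6% of all pairs, with a median ratio of 0.26. None of the 8 passed the test. NBR1 held 3 of them and SQSTM1 2, and each had ratios of both signs. SQSTM1, the receptor p62 for ubiquitinated cargo (chr5:179806393-179838078), had its highest peak far along the 3′UTR, over a GGACU, with 2.20 and 2.27 in shFTO and 1.77 and 1.60 in shNC. The groups did not overlap, and the log2 ratio was 0.55 (standard error 0.28, 95% interval -0.10 to 1.19, adjusted p = 0.874 from limma). The shFTO peak ended at nucleotide 2910 and the shNC peak at 2770. The other 3′UTR peak scored 1.38 and 1.35 in shFTO and 1.22 and 1.59 in shNC, and another, at the start codon, was listed in shNC only, at 1.33 and 1.44. NBR1, a receptor related to p62 (chr17:43170409-43211688), had peaks at both ends and in the CDS. At the start codon, over a GGACU, it scored 3.29 and 3.77 in shFTO and 3.36 and 2.47 in shNC, and its ratio was 0.62 (95% interval -0.22 to 1.45, adjusted p = 0.908 from limma), with overlap. At the stop codon it scored 3.54 and 3.41 in shFTO and 3.09 and 3.08 in shNC, and in the CDS 2.44 and 2.79 in shFTO and 3.14 and 2.85 in shNC. The groups were apart at both, in opposite directions. OPTN and TAX1BP1, receptors in the clearance of mitochondria and bacteria, had peaks at the 5′ end. For OPTN it scored 2.85 and 3.07 in shFTO and 2.95 and 2.37 in shNC, and for TAX1BP1 2.99 and 3.09 in shFTO and 3.41 and 2.50 in shNC, both with overlap.

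TFEB and TFE3 drive genes of the lysosome and autophagy and belong to the family of MITF. TFEB (chr6:41683978-41736223) had 2 peaks in each list. The 3′UTR peak over nucleotide 1878 scored 2.81 and 3.07 in shFTO and 3.64 and 2.72 in shNC. In shFTO a CDS peak over the GGACU at nucleotide 1487 scored 2.27 and 1.59 and had no partner, while in shNC a further 3′UTR peak over the GGACU at nucleotide 2159 scored 2.70 and 2.15 and began under the end of the shFTO 3′UTR peak. TFE3 had the same 2 peaks in both lists. Its CDS peak scored 3.26 and 3.67 in shFTO and 3.10 and 3.47 in shNC, and its stop codon peak, with both GGACU sites shown, 2.18 and 2.17 in shFTO and 2.21 and 2.24 in shNC. The CDS scores overlapped, and those at the stop codon lay apart by a small margin.

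Besides the ATG2B peak, the peaks of 1 list with a mean score of at least 2 and no partner were all in AMBRA1. In shFTO it had a CDS peak of 2.21 and 2.06, with 2 listed GGACU. In shNC a 3′UTR peak of 2.94 and 2.38, also with 2, lay in a run of 3 peaks that followed directly on the stop codon peak, with mean scores of 3.68, 2.66 and 1.60. The other unpartnered peaks scored between 0.97 and 1.93 in the mean, in RB1CC1, ATG4D, ATG16L1, GABARAPL2 and TFEB in shFTO and in ATG13, AMBRA1, ATG2B, SQSTM1, OPTN and TAX1BP1 in shNC.

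By region, autophagy peaks were spread much as peaks in general. In shFTO, 20.9% of the 67 peaks lay at the start codon (exact Clopper-Pearson 95% interval 11.9% to 32.6%), 25.4% in the CDS (15.5% to 37.5%), 19.4% at the stop codon (10.8% to 30.9%) and 26.9% in the 3′UTR (16.8% to 39.1%). In shNC, the shares of the 72 peaks were 20.8% (12.2% to 32.0%), 23.6% (14.4% to 35.1%), 18.1% (9.98% to 28.9%) and 31.9% (21.4% to 43.99%) in the same order. Over all peaks, the CDS held 32.1% in shFTO and 32.7% in shNC, and the 3′UTR 21.2% and 21.8%, all within the intervals of the autophagy peaks in the same list. The median score was highest at the stop codon, 3.47 in shFTO (n = 13) and 3.40 in shNC (n = 13), and was 2.36 (n = 14) and 2.37 (n = 15) at the start codon. Over all peaks it was also highest at the stop codon, 2.95 in shFTO and 2.92 in shNC, and was 2.15 and 2.2 at the start codon. At least 1 GGACU was listed in 26 of 67 peaks in shFTO (38.8%, 27.1% to 51.5%) and in 27 of 72 in shNC (37.5%, 26.4% to 49.7%), against 38.1% and 36.3% of all peaks. Peaks of 1 mRNA share their source, and the intervals cover counting error only.

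**Figure D4:**
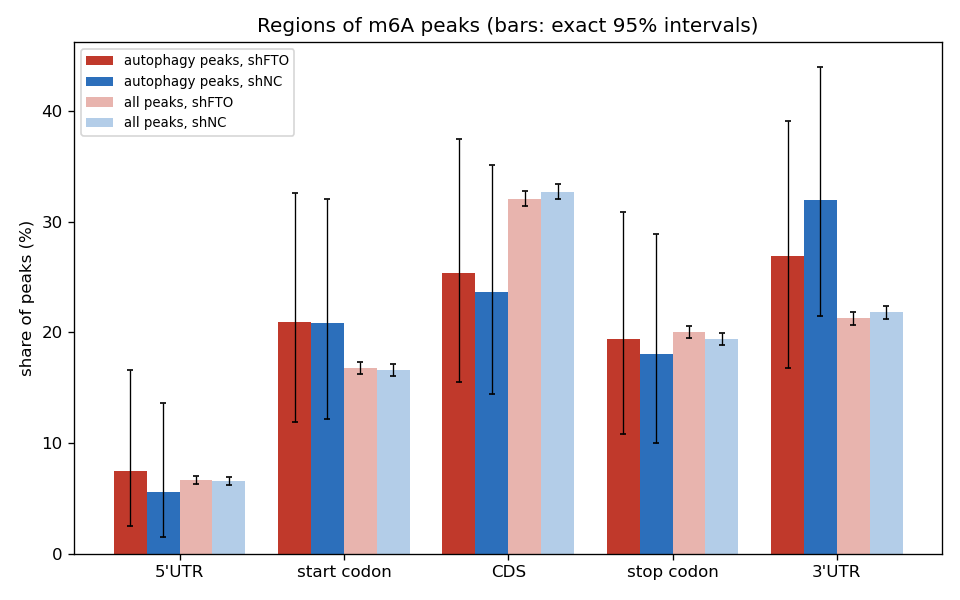
Share of m6A peaks (y axis, percent) in each region (x axis) for the 67 shFTO and 72 shNC peaks of autophagy mRNAs (dark bars) and for all 18551 shFTO and 19072 shNC peaks (light bars), with exact 95% intervals. The light bars lie within the intervals of the dark ones in each region.

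A further 60 genes of the pathway, none of them among the 35, were listed for comparison. Of these, 52 had a peak in shFTO and 51 in shNC, and the median log2 ratio of their 80 pairs was -0.04, with 47 lower in shFTO. None of the 80 passed after adjustment in limma. There were 7 pairs with lower scores in shFTO and 0 with higher ones among those whose unadjusted p was under 0.05, against 3.68% and 2.3% of all pairs, with 4 of the 7 in WIPI2, which recruits ATG16L1. The 4 WIPI2 ratios lay between -2.27 and -1.56, and their lowest adjusted p in limma was 0.285. The other 3 of the 7 pairs were 1 each in TP53INP1, TP53INP2 and VPS33A. The 5′UTR peak of TP53INP1, a p53 target that binds LC3, scored 2.07 and 2.35 in shFTO and 2.89 and 3.51 in shNC (adjusted p = 0.714 from limma). The stop codon peak of TP53INP2, an LC3-binding relative of it, scored 1.27 and 1.09 in shFTO and 2.20 and 1.76 in shNC, and the 3′UTR peak of VPS33A, a subunit of the complex that tethers lysosomes, 3.33 and 3.63 in shFTO and 3.98 and 4.91 in shNC (adjusted p = 0.757 from limma for both). The groups did not overlap in any of these 3 pairs. TP53INP2 also had a 3′UTR pair that went the other way, with a log2 ratio of 0.27. It scored 3.17 and 2.99 in shFTO and 2.79 and 2.84 in shNC, without overlap. VPS33A also had a stop codon pair, with a ratio of -0.41, where the groups overlapped. WDFY3, the ALFY protein that clears aggregates, was the only one of the 60 with peaks in 1 list, a CDS peak of 2.87 and 2.46 and a stop codon peak of 2.07 and 1.65 in shFTO.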

How the data were processed

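m6A-IP and input libraries of Mel624 cells with shFTO or shNC were analysed, 2 replicates per group. The authors trimmed reads with cutadapt, aligned them to hg38 with TopHat2 version 2.0.14, placed them on one RefSeq isoform per gene, the longest, called windows with a Fisher exact test and merged those that overlapped. They deposited 1 peak list per group with a log2 enrichment score for each replicate. How replicates were combined, and read counts, are not given in the sources used here. Columns named melshf and melshc were read as shFTO and shNC.

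Peaks were paired where each shared at least 1 base with a single peak in the opposite list. The 12117 pairs were tested with limma version 3.58.1 in R 4.3.3 (lmFit, eBayes, a group term alone), two-sided, and p-values were adjusted by Benjamini-Hochberg over all of them. The test was tried on simulated data. Other steps ran in Python 3.11.15 (scipy 1.17.1, pandas 2.3.3), and plots in matplotlib 3.10.9. Gene positions came from a RefSeq table of GRCh38, which held the gene identifiers of 99.84% of rows. All members were described: replicate scores are given for each member's highest peak, for the 5 highest and 5 lowest ratios, for pairs at an unadjusted p under 0.05, for unpartnered peaks with a mean of at least 2, and for ATG5 and ATG7. The members, lists and tests were chosen with earlier results of these data known. Alternatives were an overlap of 50%, a mean score of at least 2, a score of at least 1 in both replicates, joined peaks, centring, a replicate block, a trended prior and leaving out replicates.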

Additional observations from a re-analysis of the deposited data

How the results depend on the processing

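Leaving out a replicate moved the count of all peak pairs past the threshold from 0 to between 0 and 11, where the lone replicate is assumed to vary like the other group, but gave 0 of 45 among autophagy peaks each time. The autophagy pairs at an unadjusted p under 0.05, 3 of 45 with all libraries, were between 0 and 4. The count was 0 without shFTO replicate 2, and the median log2 ratio was between -0.11 and 0.14. The sources used here do not say whether any replicates of the 2 groups were processed together. The deviations of same-numbered replicates from their group means had a correlation of -0.273. Over all pairs, the highest correlation of any 2 score columns was 0.925, between shFTO replicate 1 and shNC replicate 2. With the replicate number as a block, 1 autophagy pair had an unadjusted p under 0.05 and no pair passed adjustment. With the replicates paired crosswise, a choice made after the data were seen, 13 pairs passed, 0 of them in autophagy genes. The ATG5 ratio lay between -0.19 and 0.30 when a replicate was left out, and turned negative without shFTO replicate 1 (-0.02) and without shNC replicate 1 (-0.19). The other 10 ratios, chosen as the highest and lowest of the 45, kept their sign under each alternative that held the pair. For most alternatives this could not have come out otherwise. The overlap, score, block and prior settings leave a ratio as it is. Centring shifts all ratios alike and slightly, as from -0.87 to -0.85 for the ATG2A start codon. Only leaving out a replicate could have turned the sign of any of these 10. Leaving out a replicate still moved several of them by much, with ranges of -0.96 to -0.14 for the ATG9A start codon, -0.80 to -0.32 for the ATG9A 3′UTR, -1.06 to -0.36 for UVRAG, -0.68 to -0.31 for the ATG2A stop codon, 0.17 to 1.06 for the NBR1 start codon, 0.12 to 0.74 for ATG4A and 0.47 to 1.28 for the first ATG4B peak. By limma none of the 11 passed, with adjusted p from 0.435 upward. With a mean score of at least 2, the 5′UTR share in shFTO was 2.17% of 46 peaks, against 7.46%. The depth of the libraries is unknown, and peaks with divided borders, such as those of ULK1 and ATG7, were compared by no test at 1 shared base. With an overlap of 50% of both peaks, 58 autophagy pairs in 32 members could be compared and none passed.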
